A study of Drosophila melanogaster with 5 samples.

Results

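Triple sites are places in the genome of the fly eye disc where peaks of the coactivator Yorkie (Yki), of its DNA-binding partner Scalloped (Sd) and of RNA polymerase II (Pol II) meet. The members were chosen by peak overlap: they are every Yki peak that shared at least 1 bp with an Sd peak and at least 1 bp with a Pol II peak, which gave 1095 of 11679 Yki peaks. Since the called peaks chose these sites, the overlaps are a description: 20.1% of all Yki peaks met an Sd peak, 54.3% met a Pol II peak and 9.38% met both, and nothing is read from these shares. Binding was mapped by chromatin immunoprecipitation and sequencing (ChIP-seq) in Drosophila melanogaster eye discs from larvae of the third stage, with 3 immunoprecipitations, 1 library each, and 2 input DNA libraries. The anti-Yki and anti-Sd libraries, with 1 of the inputs, came from discs of genotype GMR-Gal4; UAS-Drosophila Yki S168A. The anti-Pol II library and the other input came from GMR-Gal4; UAS-Drosophila Yki-V5 discs. All discs thus overexpressed a form of Yki, all are labelled as showing ectopic cell proliferation, and no control without extra Yki is among the samples. Each immunoprecipitation pooled chromatin of about 300 discs. GMR-Gal4 is active in the posterior part of the eye disc, so the pooled chromatin also held cells outside the driver's domain.

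Yki is the transcriptional coactivator that the Hippo pathway restrains. When the pathway is inactive, Yki enters the nucleus and switches on genes for growth and survival, and serine 168 is a phosphorylation site through which the pathway keeps Yki in the cytoplasm. Yki does not bind DNA itself and is brought to it by partners, of which Sd, the fly member of the TEAD family, is the best known. Pol II transcribes the genes and often pauses just after their starts, so its peaks mark promoters and transcribed stretches. A site with all 3 proteins is therefore a place where the coactivator, a DNA-binding partner and the transcription machinery were recovered close together, though not necessarily on the same DNA molecule or in the same cells.

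The values are peak intervals on genome build dm3, given 1-based, and 1 score per peak from the authors' peak caller. The smallest scores, 3.01 in the Yki and Pol II lists and 2.00 in the Sd list, lie just above whole numbers, so the score may be a −log10 q value, but no header says so. It ranks peaks within a list and was not compared between lists. The lists hold 11679 Yki, 2557 Sd and 10105 Pol II peaks, and the reads behind them are unknown. With 1 library per antibody there is no replicate spread and no test. The 95% intervals below are exact binomial intervals for shares and exact order-statistic intervals for medians; they treat sites as independent and cover counting error only. Pol II was mapped in discs of the other genotype, so antibody and genotype cannot be told apart wherever Pol II is set against Yki or Sd. No annotation of build dm3 was used, so no gene is named and the tissue label was not checked against markers.

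Triple sites had wide and high-scoring Yki peaks. Their median Yki width was 636 bp (607 to 663; quartiles 480 and 930), against 529 bp at the 1250 Yki peaks with Sd and no Pol II, 406 bp at the 5241 with Pol II and no Sd, and 327 bp at the 4093 with neither. The median Yki score was 45.7 (44.3 to 47.2) at triple sites, 35.4 with Sd alone, 22.8 with Pol II alone and 13.2 with neither. The ranges overlapped widely, since triple sites ran from a score of 5.35 to 128 and from 220 to 3629 bp. Wider peaks meet more of any other list, and the share of Yki peaks that were triple sites rose from 0.171% in the narrowest decile (2 of 1168) to 28.2% in the widest (329 of 1168), a decile being 1 of 10 equal parts of the Yki list. By Yki score the share rose from 0.171% in the lowest decile to 37.6% in the highest. Of the 100 highest Yki scores, 29 belonged to triple sites (20.4 to 38.9%), and the other classes were not counted among these. The highest score decile held 40.1% of triple sites and 29.7% of Yki peaks with Sd alone. The 90th percentile of the Yki score, however, was lower at triple sites (73.0) than with Sd alone (78.0). The Sd peak nearest the Yki centre had a median width of 267 bp at triple sites and 276.5 bp where no Pol II peak was called. The best Sd score had a median of 6.84 (6.62 to 7.05) against 7.30 (7.01 to 7.49), so Sd peaks did not score higher where Pol II was called.

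The Yki score difference depended on which class of site was compared. Within deciles of Yki width that held at least 20 peaks of both classes, which were the 7 upper ones, triple sites outscored Yki peaks with Pol II and no Sd in all 7, by an average of 17.5. Against Yki peaks with Sd and no Pol II they scored higher in 5 of 7 deciles, with differences from -7.32 to 16.3. Pol II peaks at triple sites had a median best score of 71.2 against 64.2 at Yki and Pol II sites without Sd. At like Yki width that order turned, and the Pol II score was lower at triple sites in all 7 deciles, with differences from -1.35 to -19.1 and an average of -8.61.

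**Figure D1:**
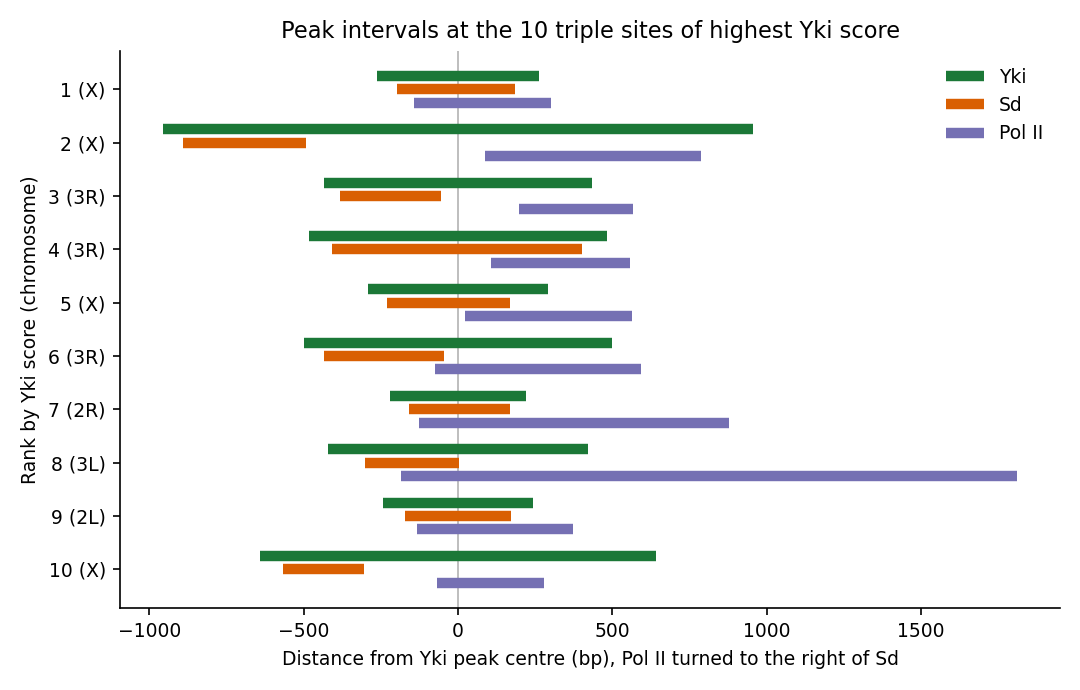
Peak intervals at the 10 triple sites of highest Yki score, 1 site per row with its rank and chromosome, drawn to scale as distance in bp from the Yki peak centre and turned so that the Pol II centre lies to the right of the Sd centre. The Sd bar lies inside the Yki bar at all 10 sites, while the Pol II bar runs past the end of the Yki bar at 8 of them.

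The 10 sites of highest Yki score show the forms that the overlap took. The first, on X from 17645618 to 17646143, was a compact site with a Yki score of 128. Its Sd peak sat 5 bp from the Yki centre and scored 16.3, the highest Sd score, which the second site shared. Its 445 bp Pol II peak was centred 79.5 bp away with a modest Pol II score of 19.0. The second, on X from 15998269 to 16000178, was a long one. Its 1910 bp Yki peak (score 116) held an Sd peak 690 bp to one side of its centre and a 697 bp Pol II peak 437.5 bp to the other, so Sd and Pol II centres were 1127.5 bp apart and their peaks did not touch. The third, on 3R from 17345906 to 17346775 (score 115), also had Sd and Pol II peaks that did not touch, with centres 600.5 bp apart, but its Pol II peak ran past the end of the Yki peak. At the fourth, on 3R from 12086017 to 12086980 (score 115), an Sd peak of 810 bp filled most of the 964 bp Yki peak. The fifth was the X peak at 17714255 to 17714838 and the sixth the 3R peak at 26886452 to 26887447, and their Sd and Pol II centres were 324 and 500 bp apart. At the seventh, on 2R from 10511977 to 10512418, the Sd centre was 4.5 bp from the Yki centre and the 1003 bp Pol II peak was centred 376.5 bp away. The eighth, on 3L from 246454 to 247296, met a Pol II peak of 1995 bp. The ninth, on 2L from 18859099 to 18859581, had coincident Yki and Sd centres (0 bp apart) and a Pol II centre 121 bp away. At the last, on X from 14847013 to 14848294, Sd lay 434.5 bp from the Yki centre and Pol II 105.5 bp. Pol II scores at the 10 sites ran from 17.9 to 155, so a high Yki score did not go with any one level of Pol II.

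A second set of sites ranked high in all 3 lists at once. They were ordered by the lowest of their 3 rank percentiles, each taken within its own list. The long X site from 15998269 led with a lowest percentile of 99.5, and it was the only one also among the 10 highest Yki scores. Next came a 1817 bp Yki peak on 3R from 11067853 to 11069669 at 98.9, which held 2 Sd peaks and lay wholly inside a 4226 bp Pol II peak. It was followed by a 2954 bp peak on X from 17722292 to 17725245 at 96.0, with 3 Sd peaks, and a 2127 bp peak on X from 3367452 to 3369578 at 95.4, also with 3. Long Yki peaks with several Sd peaks were thus common at the head of this list. The ranking took the best Sd and Pol II score at each site, so sites with several peaks were favoured by construction. The other 6 sites had lowest percentiles of 93.7 to 94.6 and were the 2R peak at 1138389 to 1138842, the X peaks at 3635570 to 3638258 and 139684 to 140358, the 3R peaks at 24948499 to 24949307 and 27045040 to 27045710, and the 3L peak at 6543186 to 6544512. The 2R peak, of 454 bp, was the narrowest, and its Sd and Yki centres were 1.5 bp apart.

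Sd sat close to the middle of the Yki peak and Pol II lay to the side. The Sd peak was wholly inside the Yki peak at 96.7% of sites and the Pol II peak at 19.4%. Containment limits how far apart the centres can lie, so these distances are not free of it. The median distance between Yki and Sd centres was 69.5 bp (59.0 to 80.5; quartiles 23.8 and 177), and the centres were within 50 bp at 461 sites and within 100 bp at 641. Yki and Pol II centres were a median of 234 bp apart (219 to 252; quartiles 115 and 419). Sd and Pol II centres were the farthest apart, with a median of 264 bp (247 to 281.5), and at 282 sites they were over 500 bp apart. The Yki centre was nearer to the Sd centre than to the Pol II centre at 879 sites, or 80.3% (77.8 to 82.6), nearer to Pol II at 215, and as near to either at 1. The Yki centre lay between the other centres at 668 sites (61.0%), Sd was the middle one at 333 (30.4%) and Pol II at 94 (8.58%). All 3 centres fell within 100 bp at only 101 sites, or 9.22% (7.58 to 11.1).

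**Figure D2:**
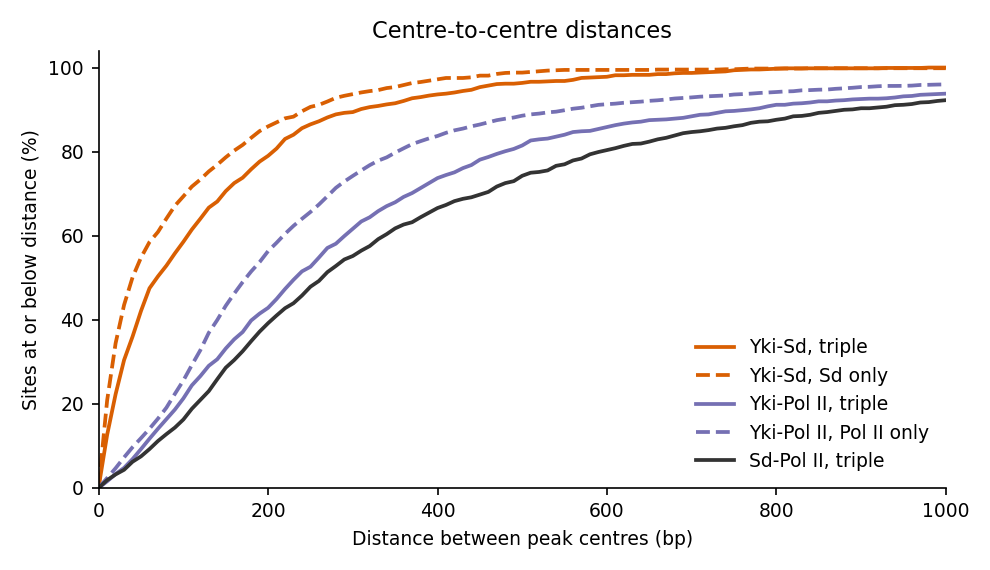
Cumulative share of sites (%) with peak centres at or below a given distance in bp. Solid lines are the 1095 triple sites, dashed lines the 1250 Yki peaks with Sd and no Pol II or the 5241 with Pol II and no Sd; at triple sites the Yki-Sd line rises first (median 69.5 bp) and the Sd-Pol II line last (median 264 bp).

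The order of these distances was not the same at every kind of overlap. At the 206 sites where the Yki peak enclosed both partners, the Yki centre was nearer to Sd at 79, or 38.3% (31.7 to 45.4). There the median distance was 173 bp from Yki to Sd and 92.3 bp from Yki to Pol II, the reverse of the order over all triple sites. These sites had a median Yki width of 1043 bp, with Sd peaks of 287 bp and Pol II peaks of 418 bp inside. The Yki centre was nearer to Sd at 93.1% of the 752 sites with partial Pol II overlap and at 74.8% of the 131 sites where the Yki peak lay inside Pol II. The order of the centres thus differed with which peak contained which. Containment itself limits where the centres can lie, so sorting by it favours such differences by construction. Sites with exactly 1 Sd and 1 Pol II peak gave a Yki to Sd median of 53.0 bp.

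**Figure D3:**
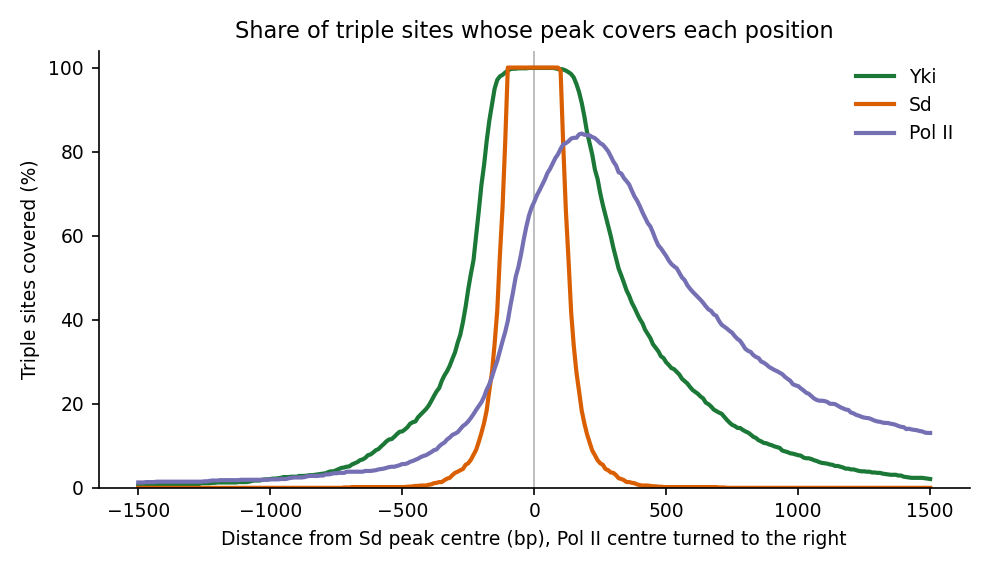
Share of the 1095 triple sites (%) whose Yki, Sd and Pol II partner peak covers each position, as distance in bp from the Sd peak centre, with each site turned so that the Pol II centre lies to the right. By construction Sd covers its own centre at 100% and Pol II falls on the right. The Yki curve is lopsided, which the overlap rule favours. It covers 57.1% of sites at 300 bp on the Pol II side and 32.2% at 300 bp on the other.

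The Yki peak reached further from Sd toward Pol II than away from it. From the Sd centre it extended a median of 334 bp (316.5 to 349) on the Pol II side and 241 bp (232.5 to 250) on the other side, and the Pol II side was the longer at 761 sites, or 69.5%. The overlap rule favours this asymmetry, since each member had to reach a Pol II peak and each site was turned toward Pol II. No level without Pol II was computed for it, and how much of it the rule makes was not tested. The Pol II centre lay at the higher coordinate at 543 of 1095 sites, so neither direction along the chromosome prevailed.

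Containment was almost fixed for Sd and varied for Pol II. The Yki peak enclosed the Sd peak at 1059 triple sites, or 96.7% (95.5 to 97.7), against 93.4% of all Yki peaks with Sd and 90.6% of those without Pol II. At 35 sites Sd and Yki overlapped in part, and at 1 site the Sd peak enclosed the Yki peak. Pol II overlapped the Yki peak only in part at 752 sites (68.7%). It lay wholly inside the Yki peak at 212 sites, or 19.4% (17.1 to 21.8), where the share over all Yki peaks with Pol II was 7.92%. The Yki peak lay wholly inside Pol II at 131 sites, or 12.0% (10.1 to 14.0), where that share was 22.3%. Triple sites thus contained Pol II more often, and were contained by it less often, than Yki peaks with Pol II in general.

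These containment differences shrank at like Yki width. At the 5241 Yki and Pol II sites without Sd, Pol II was inside Yki at 5.53% and Yki inside Pol II at 24.5%, differences of 13.8 and -12.5 percentage points from triple sites. Averaged over the 7 width deciles, they were 4.85 and -7.47 points. Containment of Pol II by Yki was more frequent at triple sites in 6 of 7 deciles, and in the widest decile it was 39.2% against 29.0%. That decile ran from 860 to 4492 bp, so width was matched only loosely there. Containment of Yki by Pol II was less frequent in all 7. The distance between Yki and Pol II centres, with medians of 234 bp at triple sites and 174.5 bp without Sd, gave no difference of constant sign at like width: the average was -3.18 bp and 4 of 7 deciles were above 0. Yki and Sd centres were a median of 40.0 bp apart where no Pol II peak was called, 29.5 bp less than at triple sites, and at like width the difference again had no constant sign, with 5 of 7 deciles above 0, a range of -5.75 to 23.5 bp and an average of 7.21 bp.

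**Figure D4:**
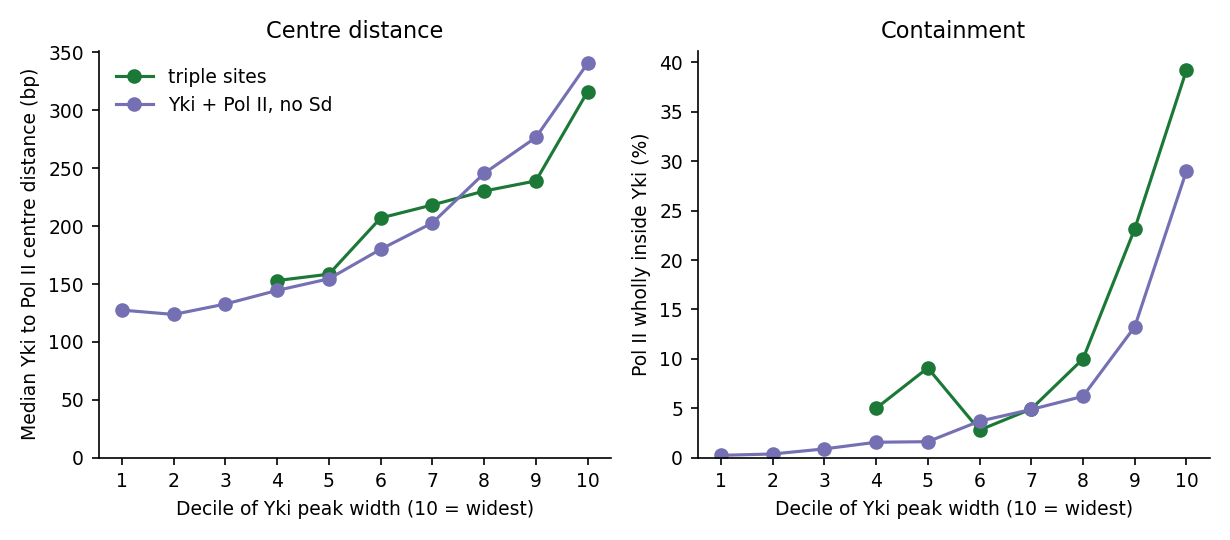
Left, median distance in bp between Yki and Pol II centres, and right, share of sites (%) with the Pol II peak wholly inside the Yki peak, by decile of Yki peak width, for triple sites and for Yki peaks with Pol II and no Sd. Points rest on at least 20 sites, and the distance lines cross. In the widest decile, which spans 860 to 4492 bp, containment is 39.2% at triple sites and 29.0% without Sd.

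Sd and Pol II peaks touched each other at most triple sites. At least 1 Sd and 1 Pol II peak shared a base at 975 of 1095, or 89.0% (87.0 to 90.8). Of the partner peaks with the nearest centres, Sd lay wholly inside Pol II at 337 sites (30.8%), overlapped it in part at 559 (51.1%), enclosed it at 24 (2.19%) and lay apart from it at 175 (16.0%). The full nesting of Sd inside Yki inside Pol II was found at 126 sites, and that of Sd inside Pol II inside Yki at 40. The commonest form, at 727 sites, was Sd inside Yki with Pol II overlapping Yki in part; the partner Sd peak then straddled the border of the partner Pol II peak at 444 and lay apart from it at 120, of which 85 had no Sd peak touching any Pol II peak. The centre of the Sd peak fell inside a Pol II peak at 786 sites, or 71.8% (69.0 to 74.4), and the Yki centre at 792, or 72.3% (69.6 to 75.0), where 75.8% of all Yki peaks with Pol II had their centre in a Pol II peak. Pol II covered a mean of 65.8% of the length of the Yki peak at triple sites and 73.4% without Sd.

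Over all triple sites, no Sd peak touched any Pol II peak at 120, a different set from the 120 above, and there the Yki peak bridged the space between them. Measured between the partner peaks of nearest centre, that space had a median of 209 bp (144 to 253). It was at most 100 bp at 37 sites, over 500 bp at 22 and 1372 bp at its widest. Where a site held several Sd or Pol II peaks, others of them may lie closer together. By the overlap rule a member had to reach both partners across that space, which fixes the bridging and favours long Yki peaks. The Yki peaks there were long, with a median of 1068 bp (877 to 1201) against 598 bp (584 to 627) at the 975 sites where Sd and Pol II touched. Their scores were alike: the median Yki score was 47.5 (40.8 to 56.5) against 45.6 (44.0 to 47.1), and the median Sd score 6.82 against 6.85. The Pol II score had a median of 67.4 (42.7 to 86.3) against 71.6 (66.8 to 75.1). Whether such a Yki peak is a single signal or several that the peak caller joined cannot be told from intervals.

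The extremes of spacing were as follows. The tightest site, on 3R from 18619681 to 18620081, had all 3 centres within 4 bp, a Yki score of 91.2 and an Sd score of 15.9. The next were on 2L from 2362805 to 2363257 (7 bp), on 3R from 2733797 to 2734156 (7 bp), on 3L from 18660245 to 18660582 (8 bp) and on 2L from 6648995 to 6649518 (8.5 bp). Their Pol II scores ran from 5.78 to 96.9, so tight coincidence did not mark strong Pol II. The widest spacings all came from very broad Pol II peaks. On 3L the peak at 627814 to 628707 spanned 7758.5 bp between centres and that at 639676 to 641152 4496.5 bp, both on the same 15479 bp Pol II peak. On 3L from 16030285 to 16030720 and from 16038774 to 16040235 the spans were 4787.5 and 4246.5 bp, both on a Pol II peak of 9823 bp, and on 3R from 21477295 to 21478113 the span was 3511 bp on one of 7745 bp. The Pol II peak was wider than 2 kb at 102 triple sites, or 9.32% (7.66 to 11.2), and at 7.44% of Yki and Pol II sites without Sd.

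Most triple sites held a single peak of each kind. There were 917 with exactly 1 Sd and 1 Pol II peak. At 72 sites, or 6.58% (5.18 to 8.21), 2 or more Sd peaks were present, where the share over all Yki peaks with Sd was 5.76%. At 122 sites, or 11.1% (9.34 to 13.2), 2 or more Pol II peaks were present, against 10.2% of all Yki peaks with Pol II. Neither share stood clear of its background. The sites with several Sd peaks were the widest, with a median of 1394 bp. The most Sd peaks, 4 each, were on a 3629 bp Yki peak on 2L from 428752 to 432380 (score 88.6) and a 3590 bp peak on X from 18431833 to 18435422 (60.7), followed by 3 on 2L from 3772509 to 3773978. The most Pol II peaks, 4, were on 2L from 440345 to 442898, and 3 each on 2L from 6087497 to 6088825 and on 3L from 21019231 to 21021336.

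Where a Yki peak joined several Pol II peaks, the centres of Yki and Sd mostly fell among them. The overlap rule favours this, since such a Yki peak reaches into each of those Pol II peaks. At the 122 such triple sites, the Sd centre lay between the outermost Pol II centres at 105, or 86.1% (78.6 to 91.7), and the Yki centre at 119, or 97.5% (93.0 to 99.5). At the 525 such sites without Sd, the Yki centre did so at 99.2%. The Sd centre was outside every Pol II peak, in a space between or beside them, at 35, or 28.7% (20.9 to 37.6). The Yki centre was outside every Pol II peak at 60 of these sites, or 49.2% (40.0 to 58.4), and at 363 of those 525, or 69.1% (65.0 to 73.1). These last intervals did not overlap, and the widths of the peaks were not held constant.

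Triple sites were mostly solitary along the chromosomes. The nearest other triple site was a median of 25.8 kb away, and 201 of 1095, or 18.4% (16.1 to 20.8), had another within 5 kb. This share was 10.6% with only the higher-scoring 50% of each list and 5.63% with peaks reduced to their central 200 bp, settings that leave 395 and 391 sites. The 1250 Yki peaks with Sd and no Pol II, a class of like size, had a neighbour of their own kind within 5 kb at 26.2% and a median spacing of 15.0 kb. With neighbouring centres at most 5 kb apart counted as a run, the sites formed 990 runs, of which 894 held 1 site, 88 held 2, 7 held 3 and 1 held 4. The run of 4, on 3L from 16030285 to 16040235, lay on a single broad Pol II peak with 6 Yki and 5 Sd peaks. The first runs of 3 were on 3L from 17003126 to 17009372 and from 21633819 to 21638323, and on 3R from 3802793 to 3804528 and from 12030843 to 12035620. In the 3R run at 3802793, all 3 sites lay on 1 Pol II peak within 1.74 kb. Sharing was rare over the whole set, since the members met 1178 different Sd peaks and 1201 different Pol II peaks, 0 of the former and 18 of the latter met by more than 1 site.

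Among Yki peaks near a triple site, the commonest kind carried Pol II without Sd, as among the neighbours of all Yki peaks. Within 5 kb, triple sites had 1682 Yki neighbours, of which 48.7% had Pol II alone, 28.9% had neither, 13.0% were triple and 9.45% had Sd alone. Over the neighbours of all Yki peaks these shares were 44.2, 37.0, 8.49 and 10.2%. Beside Yki peaks with Pol II alone, 61.6% of the neighbours had Pol II alone. A triple neighbour was thus met more often beside a triple site (13.0%) than beside a Yki peak with Pol II alone (9.35%) or with Sd alone (7.83%). Within 2 kb and 10 kb the share beside triple sites was 12.3 and 12.0%. Every class was met more often beside its own kind than beside all Yki peaks. Within 5 kb of Yki peaks with Sd alone, 19.4% of the neighbours had Sd alone, against 10.2% over all Yki peaks. Beside those with neither, 50.2% had neither, against 37.0%. Pairs of neighbours share sites and are not independent, so no interval is given.

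By window of 100 kb, 580 of 1206 windows on the arms held no triple site, 348 held 1 and 170 held 2. The variance of the count was 1.37 times its mean, against 1.71 for Yki peaks with Sd alone and 3.19 for those with Pol II alone, which are more numerous. Triple counts followed those of Yki and Pol II sites without Sd (Spearman rho 0.33, Pearson r 0.30, across windows that are not independent) and hardly those of Yki and Sd sites without Pol II (0.04 and 0.04). Triple sites and Yki and Sd sites without Pol II are a single set divided by Pol II overlap. The overlap rule thus favours this contrast. Against counts of Yki peaks with neither partner the values were 0.11 and 0.06. The richest window, on X from 15800001 to 15900000, held 7 triple sites among 12 Yki, 7 Sd and 19 Pol II peaks, and no Yki site with Sd alone. The next, on 2L from 400001 to 500000, held 6 among 15 Yki, 12 Sd and 24 Pol II peaks. Windows on 2R from 1500001 to 1600000, on 3L from 16000001 to 16100000 and on 3R from 3800001 to 3900000 held 5 each, as did 5 other windows.

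**Figure D5:**
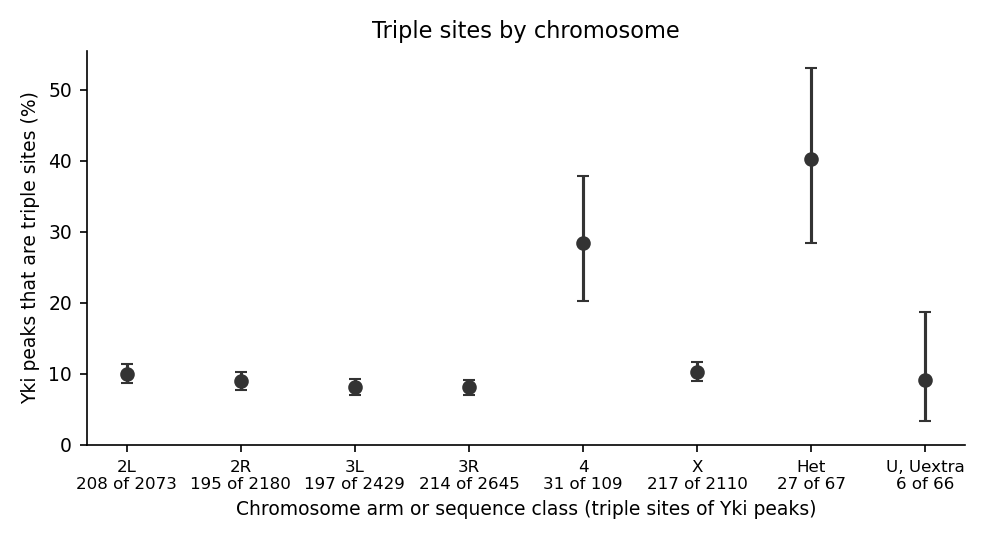
Share of Yki peaks that are triple sites (%) on each chromosome arm, on the pooled heterochromatic sequences (Het) and on unplaced sequence (U, Uextra), with exact 95% intervals and the counts below each point. The 5 large arms lie between 8.09 and 10.3%, chromosome 4 at 28.4% and the heterochromatic sequences at 40.3%.

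A larger share of Yki peaks were triple sites on chromosome 4 and the heterochromatic sequences than on the large arms. On 2L, 2R, 3L, 3R and X, between 8.09 and 10.3% of Yki peaks were triple sites, or 7.67 to 9.68 sites per Mb. On chromosome 4, a small chromosome rich in heterochromatin, 31 of 109 Yki peaks were triple sites, or 28.4% (20.2 to 37.9), at 23.0 per Mb. On 2LHet, 2RHet, 3LHet, 3RHet and XHet combined it was 27 of 67, or 40.3% (28.5 to 53.0), and on unplaced sequence 6 of 66, or 9.09% (3.41 to 18.7). Sd overlap itself was more frequent there. An Sd peak was met by 51 of 109 Yki peaks on chromosome 4 and 35 of 67 on the heterochromatic sequences. On the large arms it was 2247 of 11437. Among Yki peaks with Sd, 60.8% (46.1 to 74.2) also met Pol II on chromosome 4, 77.1% (59.9 to 89.6) on the heterochromatic sequences and 45.9% (43.8 to 48.0) on the large arms. On X this share was 52.7% (47.7 to 57.6) and on 3L 39.2% (34.9 to 43.6), the highest and lowest of the large arms. Sites on chromosome 4 had narrower Yki peaks (median 511 bp) and more distant Pol II centres (504.5 bp) than those on the large arms (651 and 223 bp). The heterochromatic sites had medians of 512 and 460.5 bp. These sequences are rich in repeats, and how reads that match several places were treated is not given in the sources used here.

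The 1 bp rule left few sites near its edge. The smallest Pol II overlap among triple sites was 15 bp, on 3L from 6736617 to 6737289, followed by 27 bp on 3R from 3794786 to 3795525 and 28 bp on 3L from 1488608 to 1488896. Just outside the rule were 3 Yki and Sd sites. The X peak at 2539663 to 2540550 was 16 bp from a Pol II peak, that at 10665734 to 10666436 was 34 bp from one, and the 3R peak at 20407603 to 20408348 was 41 bp from one. Pol II overlapped by at most 100 bp at 11 triple sites, and 7 of the 1250 Yki and Sd sites without Pol II had a Pol II peak within 100 bp.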

How the data were processed

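The submitters' processing notes name the tools CASAVA (1.8.2), Bowtie and MACS2 and the build dm3; their settings, control libraries and read filters were not given in those sources. The deposited files are 1 peak list per immunoprecipitation, each with start and end and 1 score per peak; the score is the authors' and other columns are interval coordinates. Read depth is unknown.

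Peaks were joined by an overlap of at least 1 bp. A centre is the midpoint of an interval, since no summits were used. Where a Yki peak met several Sd or Pol II peaks, the one of nearest centre was the partner. Containment means wholly inside. Deciles divide all Yki peaks by width or score. The geometry code was tested on simulated sites with planted offsets. The software was Python 3.11.15 with scipy 1.17.1, numpy 2.4.6, matplotlib 3.10.9 and pandas 2.3.3.

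The members, rules and alternatives were chosen with earlier results of these data known. Named sites are the 10 highest by Yki score, the 10 highest by lowest percentile, the 5 tightest and 5 widest, the 3 with most Sd and with most Pol II peaks, the 5 richest windows and runs, and the 3 on either side of the overlap limit, ties by chromosome and start. Peak sequences and gene assignments were not analysed here, for want of a dm3 reference. The input libraries were not analysed here.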

Additional observations from a re-analysis of the deposited data

How the results depend on the processing

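Of 56 recomputed values over 9 results, 37 stayed inside the exact 95% interval of the value reported (for the number of sites, within 1.5 times) and 19 did not. Triple sites numbered 395 with only the higher-scoring 50% of each list and 391 with peaks reduced to their central 200 bp. Those settings gave 10.6 and 5.63% of sites with another within 5 kb; within 2 kb it was 7.76% and within 10 kb 27.2%. With the upper 50%, Yki to Pol II and Sd to Pol II medians were 296 and 355 bp, Sd and Pol II shared a base at 86.8% and Pol II lay inside Yki at 12.7%. Requiring 50% of the shorter peak, 217.5 bp separated Yki and Pol II centres and 79.0% had Sd and Pol II sharing that much. Sites with exactly 1 Sd and 1 Pol II peak gave 53.0 bp from Yki to Sd, 214.5 bp from Yki to Pol II and 16.4% with Pol II inside Yki. Where both partners lay inside Yki, a choice made after seeing the data, the Yki to Sd, Yki to Pol II and Sd to Pol II medians were 173, 92.3 and 180 bp and the Yki centre was nearer to Sd at 38.3%. Within deciles of Yki width, also chosen afterwards, the averages of 2 differences from sites without Sd changed sign. The Pol II score difference averaged -8.61 and was below 0 in all 7 deciles. The Yki to Pol II distance difference averaged -3.18 bp, but it stayed above 0 in 4 of 7 deciles. The cause of these shifts was not tested, beyond the fewer peaks or shorter intervals that some settings leave by construction. The Sd score limit of 3 and the arms alone moved none of the 9 results outside its interval. No paired analysis was possible because no antibody had a replicate library. Peaks missing from a list were not called there, which does not show that the protein was absent.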

Other observations

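Among Yki peaks with Pol II, the share that also met Sd was highest at both ends of the Pol II score. It was 22.1% (18.9 to 25.5) of 634 sites in the lowest decile of the best Pol II score, 13.1% (10.6 to 16.0) in the fourth decile and 23.3% (20.1 to 26.8) in the highest. The median Yki width was 383, 385 and 536.5 bp in these deciles, and width was not held constant in these shares.

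Among Yki peaks with Sd, the share that met Pol II changed little with the Sd score, from 41.7% (35.3 to 48.3) in the lowest decile to a high of 51.9% (45.3 to 58.5) in the third and 39.6% (33.3 to 46.1) in the highest. Across the 1095 triple sites, which share the same 3 libraries, the Yki score went with the best Sd score (Spearman rho 0.40, Pearson r 0.45). It went with the best Pol II score hardly at all (0.04 and 0.03), and the Sd and Pol II scores did not rise together (-0.06 and -0.05).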
